A study of Mus musculus with 4 samples.

Results

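Fibroblast-rich primary tumour spots are the regions of the 4T1 primary tumours in which transcripts of fibroblast genes took the largest share of all transcripts. They were chosen by the summed unique molecular identifiers (UMIs, each standing for 1 captured probe pair) of 8 score genes, Col1a1, Col1a2, Col3a1, Dcn, Lum, Postn, Fbln1 and Pdgfra, over all UMIs of a spot. The 10% of spots with the highest score in each primary tumour section were taken, among spots with over 200 genes and at least 1000 UMIs. This gave 392 members of 3920 eligible primary tumour spots, 160 of 1604 in tumour A and 232 of 2316 in tumour B, out of 9445 spots under tissue in the whole series. They were compared with the 1960 fibroblast-poor spots of the same sections, the 50% with the lowest score (802 and 1158). The score genes selected the spots, so their levels under this choice are given as a description and carry no test.

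The primary tumours are called tumour A and tumour B, in the order of the label numbers of the 2 mice. Both mice were BALB/c animals injected in the mammary fat pad with 100000 cells of 4T1, an established line of mouse mammary carcinoma cells, at 8 weeks of age. Primary tumours and lungs were collected 28 days later, and 1 fixed, paraffin-embedded section per tissue and mouse was profiled by the Visium probe assay. Each mouse therefore gave 1 primary tumour section, with no untreated animal and no second clone or dose, and n = 2 sections stands behind every comparison here. Total depth ranged from 10890154 to 30240176 UMIs per section. Each spot covers an area of tissue in which cells of more than 1 type may lie. Fewer fibroblasts and less RNA per fibroblast cannot be told apart in such sums.

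Fibroblasts of carcinomas lay down and remodel the extracellular matrix around the tumour cells. Fibrillar collagens form the load-bearing fibres, proteoglycans and matricellular proteins bind and organise them, and proteases with their inhibitors set how fast they are turned over. Some fibroblasts take on a contractile, myofibroblast state marked by smooth muscle actin, and others an inflammatory or antigen-presenting state. Which of these programmes accompanied the 8 score genes in the tissue was the question put to the members.

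The 2 sections did not carry the same weight of evidence. In tumour A a member held a median of 6774 UMIs and of 13 score UMIs, whereas in tumour B it held 1790.5 UMIs and 2 score UMIs. Of the members, 18 of 160 in tumour A and 176 of 232 in tumour B were chosen on 3 score UMIs or fewer. The last member inside the threshold had a score of 0.1601% and the nearest spot outside 0.1599% in tumour A, and both had 0.0881% in tumour B. The median score was 0.188% over the members and 0.0715% over all eligible spots in tumour A, against 0.120% and 0.0189% in tumour B. Among fibroblast-poor spots, 176 of 802 in tumour A and 1070 of 1158 in tumour B had no score UMI at all. The deepest 10% of the members (16 and 23 spots) held 22.8% of the members' UMIs in tumour A and 62.9% in tumour B, so the sum over members of tumour B rests mostly on 23 spots.

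**Figure D1:**
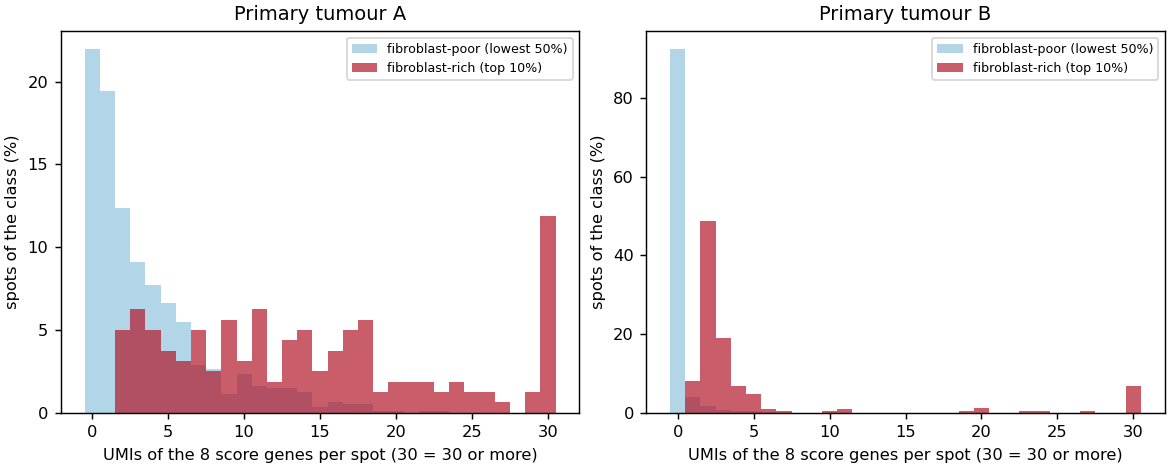
Percent of spots in each class (vertical axis) by the number of score UMIs in the spot (horizontal axis, values of 30 or more drawn at 30), fibroblast-rich in red and fibroblast-poor in blue. The members of tumour A spread widely around a median of 13 score UMIs, while those of tumour B pile up around a median of 2.

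The members lay next to each other more often in tumour A than in tumour B, as a description of 2 sections. Of the spots next to a member, 30.4% were members themselves in tumour A and 13.4% in tumour B, against 3.96% and 9.59% of the spots next to a fibroblast-poor spot. The 160 members of tumour A fell into 66 patches, the largest of 24 spots, with 41 members alone. The 232 members of tumour B fell into 158 patches, the largest of 9 spots, with 116 members alone. Across spots, the score and the mean score of the adjoining spots had a Spearman rho of 0.553 in tumour A (1596 spots) and 0.0881 in tumour B (2314 spots), given as a description since adjoining spots share a section. Members lay at the tissue edge less often than eligible spots in tumour A (5.63% against 11.3%) and more often in tumour B (14.2% against 10.4%), a difference that was not tested.

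**Figure D2:**
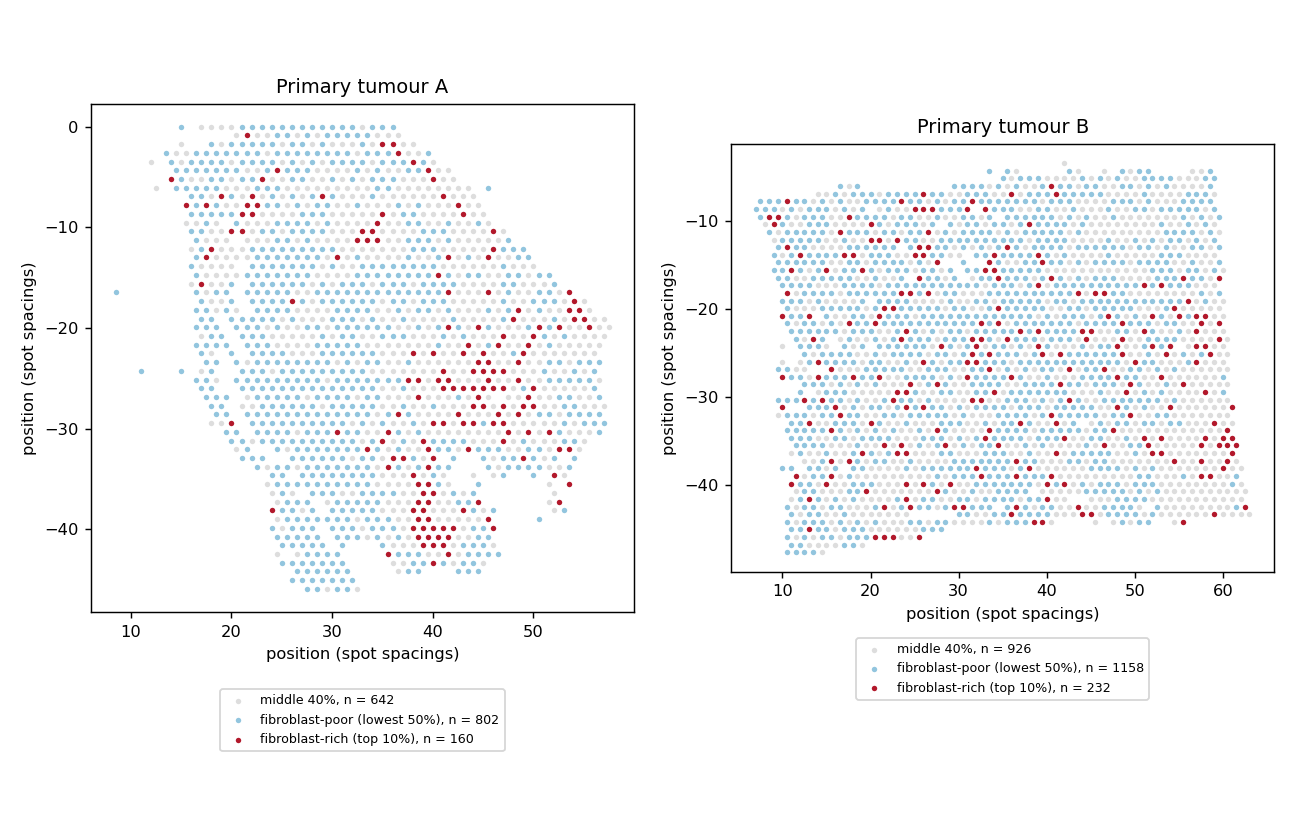
Position of the eligible spots on the capture grid in spot spacings, with fibroblast-rich spots in red, fibroblast-poor spots in blue and the middle 40% in grey. Members gather in patches of up to 24 spots in tumour A, and the largest patch of tumour B has 9 spots.

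The label was checked on score genes that did not take part in the choice. When spots were chosen by Col1a1, Col1a2, Col3a1 and Postn alone, Dcn, which encodes the small proteoglycan decorin, had 78.4 against 34.7 CPM (UMIs of a gene per 1000000 UMIs of the summed spots) in fibroblast-rich and fibroblast-poor spots of tumour A and 36.4 against 18.4 CPM in tumour B. This log2 fold change of 1.04 had an unadjusted p of 7.4e-04 but did not pass the adjustment over all genes (edgeR adjusted p = 0.532). When spots were chosen by the score of the adjoining spots, so that their own counts were not used, Col1a1, Col1a2, Col3a1, Postn and Dcn had log2 fold changes of 2.44, 2.29, 2.27, 1.65 and 1.06, and Lum, the proteoglycan lumican, of 1.06. These values are a description, since the same genes in correlated adjoining spots made the choice. In the check by 4 genes Lum was not called, and its direction differed between the sections, at 18.0 against 6.10 CPM in tumour A and 11.8 against 13.3 CPM in tumour B. Fbln1 was too low to test. Pdgfra, a receptor of resting and activated fibroblasts, had a log2 fold change of 0.35 in the check by 4 genes (edgeR adjusted p = 1.00) and of 0.33 in the choice by adjoining spots. In the members it had 310 against 160 CPM in fibroblast-poor spots of tumour A and 267 against 29.2 CPM in tumour B, while Col1a1 had 878 against 126 CPM and 471 against 7.96 CPM.

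Among 15504 genes tested on the sums of the 4 classes with the mouse as a block, edgeR called 31 genes higher in fibroblast-rich spots (0.2% of genes tested) and 13 lower (0.0838%). At an unadjusted p under 0.05 there were 750. Without the mouse as a block edgeR called none (33 at an unadjusted p under 0.05), and DESeq2 with the block called 5. With every spot thinned to 1000 UMIs edgeR called 0 genes higher and 1 lower (442 at an unadjusted p under 0.05). The increases were led by matrix genes: of 108 tested genes in 7 matrix lists, 16 were called higher (14.8%) and none lower, and their median log2 fold change was 0.26 against -0.10 over all genes tested. Mgp, the matrix Gla protein, is in none of these lists and was called lower. The lists were written with earlier results of these data known. Of the 31 increases, 28 had the same sign in both sections, and Vwf, Igfbp5 and Ctsk were higher in tumour A alone. The adjusted p of a gene does not measure how far the sections agree for it. All 13 decreases had the same sign in both, although in the deepest 10% of spots of tumour A members were above fibroblast-poor spots for 5 of them and below for 7.

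The calls were lost without the deepest spots of tumour B. Without the deepest 10% of each class, which was tried only once the data had been seen, no gene was called by edgeR (418 had an unadjusted p under 0.05). With these spots left out in tumour B alone none was called (370 at an unadjusted p under 0.05), and in tumour A alone 14 higher and 1 lower were. Left out in both, the median log2 fold change of the 31 genes fell from 1.09 to 0.59, with 31 of 31 above 0. In tumour A the remaining 144 members were above the remaining fibroblast-poor spots for all 31 genes. In tumour B the remaining 209 members were above for 22 genes and below for 9. The 16 matrix genes called higher summed to 1954 CPM in these shallower members and 1041 CPM in shallower fibroblast-poor spots of tumour A, and to 637 against 547 CPM in tumour B. Within the deepest 10% they summed to 2466 against 854 CPM in tumour A and to 1663 against 538 CPM in tumour B. The increases below thus have their direction in tumour A with and without the deepest 10% of spots (Acta2, with no UMI in its 16 deepest members, was the exception), and in tumour B they rest mainly on 23 members.

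**Figure D3:**
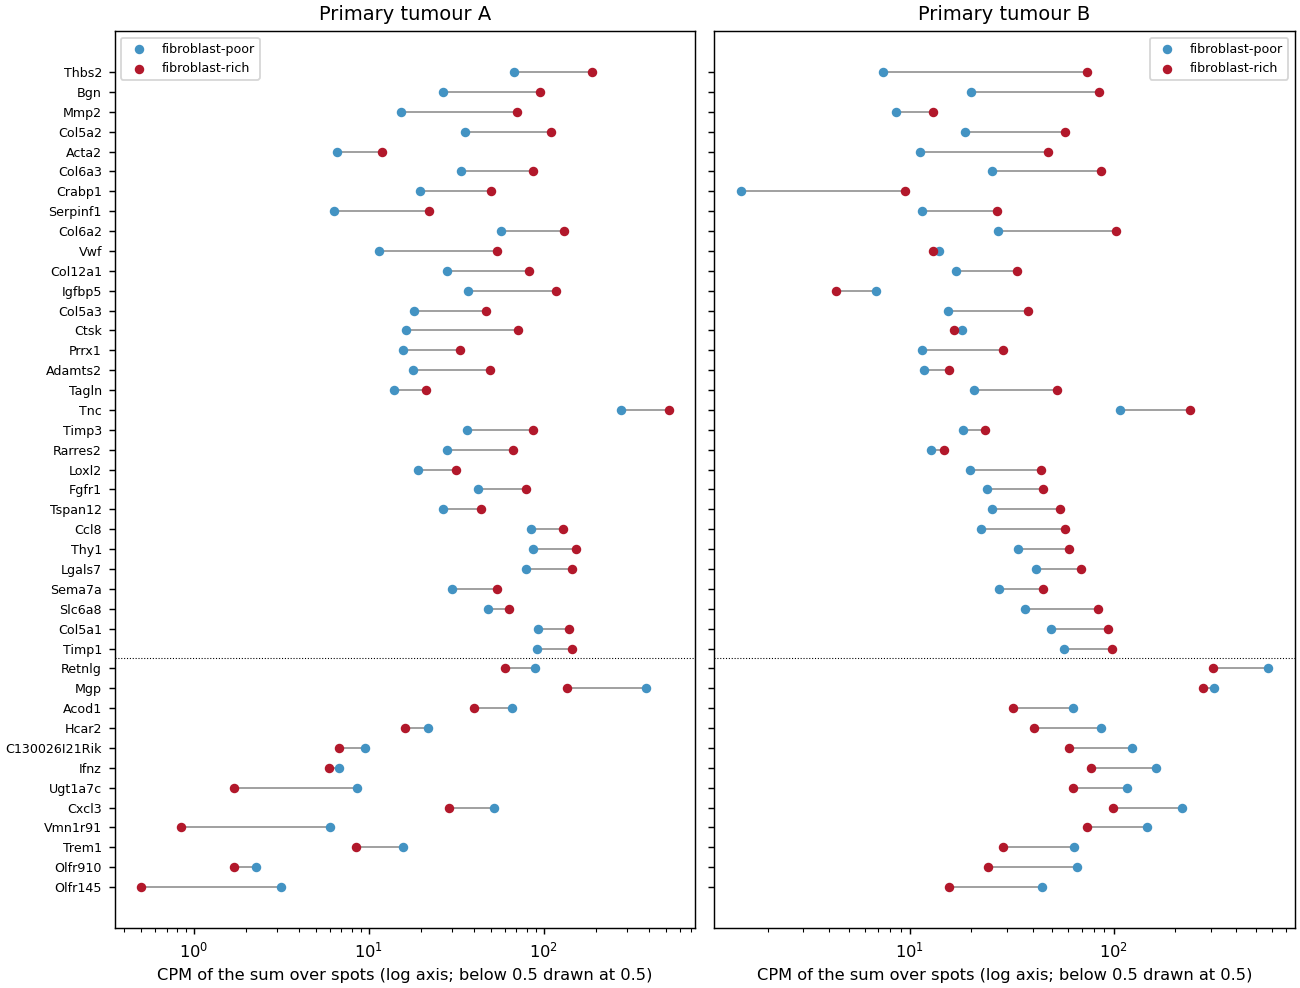
CPM on a log axis of the called genes reported here in the summed fibroblast-rich (red) and fibroblast-poor (blue) spots, 1 panel per mouse and no error bars because each point is a single sum. Genes above the dotted line were called higher, and all of these pairs but Vwf, Igfbp5 and Ctsk point the same way in both mice.

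Fibrillar and network collagens gave the largest group of calls, 6 of 15 tested. Col5a2, a chain of the collagen V that starts fibril assembly, had 110 CPM in fibroblast-rich and 35.5 CPM in fibroblast-poor spots of tumour A, and 57.8 and 18.6 CPM in tumour B (log2 fold change 1.63, SE 0.19, edgeR adjusted p = 8.0e-14). Its partner chains Col5a3 (1.34 ± 0.24 SE) and Col5a1 (0.74 ± 0.18 SE) were also called. Col6a3 and Col6a2 encode chains of the microfibrillar collagen VI. Col6a3 had 87.5 against 33.7 CPM in tumour A and 87.2 against 25.3 CPM in tumour B (log2 fold change 1.56, SE 0.19, edgeR adjusted p = 3.4e-13), and Col6a2 131 against 57.2 and 103 against 27.1 CPM (2.83-fold, edgeR adjusted p = 5.7e-13). The third chain gene, Col6a1, had a log2 fold change of 0.49 and was not called (edgeR adjusted p = 0.544). Col12a1, a collagen that decorates fibrils, had 82.4 against 28.0 CPM and 33.7 against 16.8 CPM (log2 fold change 1.35, SE 0.21). In tumour B without the deepest 10%, Col5a2 was at 20.9 CPM in members and 26.8 CPM in fibroblast-poor spots, and Col6a3 at 30.2 and 38.2 CPM.

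The largest fold changes were those of Thbs2 and Bgn. Thbs2, which encodes the matricellular protein thrombospondin 2, had 189 against 67.8 CPM in tumour A and 74.3 against 7.37 CPM in tumour B (log2 fold change 2.02, SE 0.19, edgeR adjusted p = 1.5e-21). Bgn, the small proteoglycan biglycan, had 95.1 against 26.5 CPM and 84.6 against 20.04 CPM (log2 fold change 1.94, SE 0.19, edgeR adjusted p = 1.6e-20). Tnc, the adhesion-modulating glycoprotein tenascin C, had 518 against 276 CPM and 238 against 108 CPM (log2 fold change 1.02, SE 0.18). In each section the fibroblast-rich sum was above the fibroblast-poor sum for all 3 genes. Thbs2 and Tnc were the 2 called of 15 tested matricellular genes. Bgn was the 1 called of 7 proteoglycans, whose median log2 fold change was -0.59. In both sections 1 (14.3%) was higher and 2 (28.6%) lower, near the 16.5% and 34.9% of all genes tested. The proteoglycan list summed to 116 against 52.3 CPM in tumour A and 147 against 137 CPM in tumour B. None of 15 basement membrane genes and none of 14 elastic fibre genes was called, at medians of 0.26 and 0.11 on the log2 scale. With 0.2% of all genes tested called higher, this lack of calls gives no result about the lists. Higher in both sections were 53.3% and 42.9% of them, against 16.5% of all genes tested. The basement membrane list summed to 3771 against 3516 CPM in tumour A and 3451 against 2520 CPM in tumour B.

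Genes of matrix turnover were called beside the structural genes. Of 21 proteases and inhibitors tested, 5 were called higher, among them Mmp2, Ctsk, Timp3 and Timp1. Mmp2, a gelatinase made largely by stromal cells, had 70.5 against 15.4 CPM in tumour A and 13.0 against 8.55 CPM in tumour B (log2 fold change 1.74, SE 0.26). The fibroblast-rich sum of Mmp2 was above the fibroblast-poor sum in both sections, by a wide margin in tumour A only. The metalloprotease inhibitors Timp3 and Timp1 had log2 fold changes of 0.96 and 0.73. Timp3 had 86.6 against 36.4 CPM in tumour A but only 23.3 against 18.3 CPM in tumour B. Timp1 had 145 against 91.3 CPM and 98.4 against 56.9 CPM. Ctsk, a collagen-degrading cathepsin, had 71.3 against 16.3 CPM in tumour A but 16.4 against 18.0 CPM in tumour B. In tumour A its level was 224 against 10.4 CPM in the deepest 10% and 26.4 against 18.9 CPM in the other spots, and without the deepest 10% of each class its log2 fold change was 0.04. Adamts2, which trims procollagen, and Loxl2, which cross-links collagen, were the 2 called genes of 21 for collagen processing (1.09 and 0.94). Adamts2 had 49.3 against 17.9 CPM in tumour A but only 15.5 against 11.8 CPM in tumour B.

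Of the contractile state, 2 genes of 13 were called higher, against 0.2% of all genes tested. The whole list summed to 1079 against 1074 CPM in tumour A and 1103 against 1249 CPM in tumour B. Its median log2 fold change was 0.32 in tumour A and -0.14 in tumour B. In both sections 4 genes (30.8%) were higher and 3 (23.1%) lower, against 16.5% and 34.9% of all genes tested. Acta2, smooth muscle actin, had 11.9 against 6.63 CPM in tumour A and 47.5 against 11.2 CPM in tumour B (log2 fold change 1.60, SE 0.33, edgeR adjusted p = 0.00185), from 14 and 55 UMIs in members. Tagln, its actin-binding companion, had 21.2 against 14.0 and 52.7 against 20.6 CPM (log2 fold change 1.04, SE 0.25). The other 11 of 13 tested contractile genes were not called, and the mural cell genes among them gave log2 fold changes of -0.60 (SE 0.62) for Rgs5, -0.06 (SE 0.79) for Notch3, 0.77 (SE 0.96) for Cspg4 and -0.13 (SE 0.56) for Des. Mcam, an adhesion molecule of mural and endothelial cells, had 56.9 against 47.6 CPM and 37.1 against 29.5 CPM (log2 fold change 0.29, SE 0.20). Among 14 fibroblast genes outside the score, Serpinf1 (1.51 ± 0.36 SE) and Thy1 (0.82 ± 0.18 SE) were called. The median log2 fold change of this list was 0.18. In both sections 5 (35.7%) were higher and 3 (21.4%) lower, against 16.5% and 34.9% of all genes tested. The list summed to 7411 against 7256 CPM in tumour A and 8972 against 6938 CPM in tumour B. Prrx1, a transcription factor of mesenchymal cells, was the 1 called of 14 fibroblast regulators, with 33.1 against 15.8 CPM and 28.5 against 11.5 CPM. None of 13 inflammatory fibroblast genes and none of 8 MHC class II and antigen-presenting fibroblast genes was called, with medians of -0.06 and -0.39. Of the latter list 7 of 8 were lower in both sections, against 34.9% of all genes tested, while its summed level was higher in members, at 5319 against 5163 CPM in tumour A and 1963 against 1770 CPM in tumour B.

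Of 22 growth factor and receptor genes 2 were called higher, against 0.2% of all genes tested. Fgfr1, a receptor for fibroblast growth factors, had 79.8 against 42.0 CPM and 44.9 against 23.9 CPM (log2 fold change 0.92, SE 0.20). Igfbp5, which binds insulin-like growth factors, had 117 against 37.0 CPM in tumour A and 4.32 against 6.78 CPM in tumour B. None of 13 TGF-beta ligands and receptors, 11 complement genes, 14 interferon-induced genes, 13 hypoxia and glycolysis genes and 22 proliferation genes was called. With 0.2% of all genes tested called higher and 0.0838% lower, lists of this size with no call give no result about the lists. Of the interferon-induced genes, 8 of 14 were lower in members of both sections without passing the test, against 34.9% of all genes tested. Other called increases included Crabp1, a retinoic acid binding protein, with 50.1 against 19.7 CPM in tumour A and 9.50 against 1.47 CPM in tumour B (log2 fold change 1.54, SE 0.31). Ccl8, a chemokine of monocytes, had 129 against 85.1 CPM and 57.8 against 22.4 CPM (log2 fold change 0.88, SE 0.19). Rarres2 (0.95), Tspan12 (0.91), Sema7a (0.80) and Slc6a8 (0.79) were also called, with log2 fold changes in brackets. Rarres2 had 67.1 against 28.2 CPM in tumour A but only 14.7 against 12.7 CPM in tumour B.

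Markers of other cell types were given over whole lists, and their part in the results was not tested. Carcinoma genes were at similar summed levels in members and fibroblast-poor spots, 1639 and 1678 CPM in tumour A and 1724 and 1832 CPM in tumour B, with none of 10 called. Blood endothelial genes summed to 974 against 658 CPM in tumour A and 522 against 557 CPM in tumour B. Vwf, an endothelial gene, was the 1 called of 13, at 54.4 against 11.4 CPM in tumour A and 13.0 against 13.9 CPM in tumour B. Epidermal genes summed to 334 against 158 CPM and 136 against 141 CPM, and Lgals7 was the 1 called of 6 (0.82). Macrophage genes summed to 2254 against 2248 CPM and 673 against 547 CPM, with none of 11 called. Adipocyte genes summed to 86.6 against 44.4 CPM and 78.6 against 131 CPM, with none of 5 called. T and natural killer cell genes summed to 161 against 145 CPM in tumour A and 60.4 against 134 CPM in tumour B (median log2 fold change -0.40), with Klrb1c at 0 in all sums. B and plasma cell genes summed to 38.2 against 33.9 CPM and 52.7 against 92.8 CPM (median -0.70). All 5 tested skeletal muscle genes were lower in both sections, against 34.9% of all genes tested, and the list summed to 7.64 against 10.8 CPM and 50.9 against 103 CPM (median -0.87). Schwann cell genes summed to 62.0 against 57.7 CPM and 91.5 against 123 CPM (median -0.65), mast cell genes to 75.6 against 73.8 CPM and 162 against 248 CPM (median -0.20), and lymphatic endothelial genes to 18.7 against 10.4 CPM and 25.04 against 45.4 CPM (median 0.16). No gene of these last 6 lists was called. Without spots high in skin, muscle and fat genes, 33 genes were called higher and 12 lower.

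**Figure D4:**
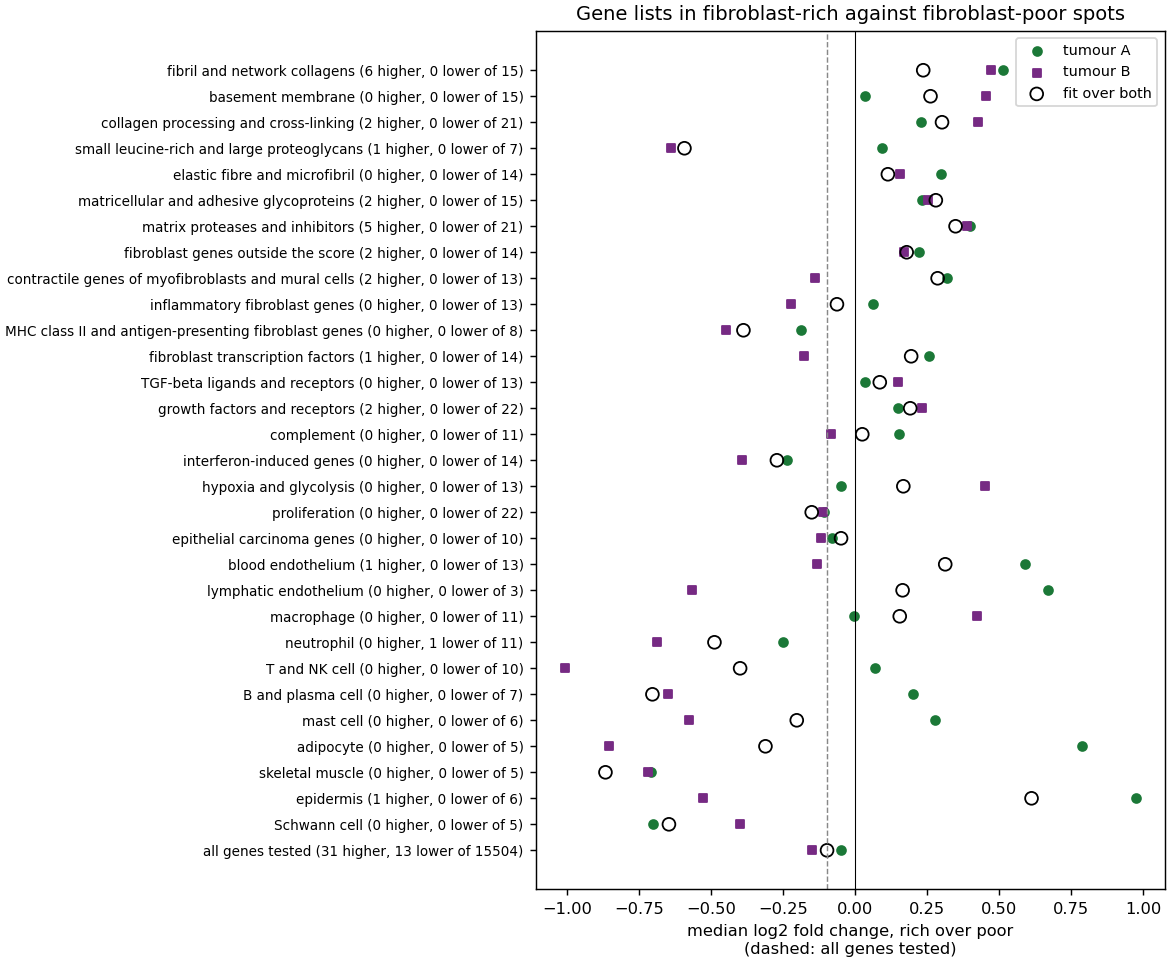
Median log2 fold change of each gene list, fibroblast-rich over fibroblast-poor, in tumour A (green circles), tumour B (purple squares) and the fit over both (open circles), with the counts of called genes beside each name. In the fit over both, the matrix lists other than proteoglycans lie to the right of the dashed line of all genes tested (-0.10). Proteoglycan (-0.59) and neutrophil genes (-0.49) lie to the left. Epidermal genes (0.61) lie furthest right in the fit over both, and skeletal muscle (-0.87), B and plasma cell (-0.70) and Schwann cell genes (-0.65) furthest left.

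The neutrophil list had a median log2 fold change of -0.49. It summed to 2501 CPM in members against 3267 CPM in fibroblast-poor spots of tumour A and to 9202 against 17053 CPM in tumour B. In tumour B it summed to 4779 against 13668 CPM in the deepest 10% of each class and to 16692 against 19943 CPM in the other spots. Of 11 tested, 8 were lower in both sections, against 34.9% of all genes tested, and 1, Retnlg, was called, against 0.0838% called lower (60.3 against 89.5 CPM and 309 against 575 CPM, log2 fold change -0.75, SE 0.19). Other called decreases included the chemokine Cxcl3 (-1.01), the receptors Trem1 (-1.07) and Hcar2 (-0.86), and Acod1 (-0.84), a metabolic enzyme of activated myeloid cells. Mgp, which holds back calcification, had 136 against 386 CPM in tumour A and 275 against 311 CPM in tumour B (log2 fold change -0.81, SE 0.19). Outside the deepest 10% of each class it was at 141 against 241 CPM in tumour A and at 244 against 206 CPM in tumour B, so that its direction turned in tumour B.

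The decreases also included Olfr145, Olfr910 and Vmn1r91, which belong to the chemosensory receptor families. All 1178 such receptor genes together took 0.0660% of the UMIs of members and 0.0751% of those of fibroblast-poor spots in tumour A, and 0.808% and 1.51% in tumour B. In tumour B the share was 20629 CPM in members against 25468 CPM in fibroblast-poor spots outside the deepest 10% of each class, and 673 against 2982 CPM inside it. In tumour A it was 763 against 1004 CPM outside and 310 against 175 CPM inside. The part of this in the decreases was not tested. With spots ranked within 5 depth classes of each section, which match depth only roughly, 20 of the 31 increases and 1 of the 13 decreases (Mgp) were still called by edgeR.

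Levels by score and by distance are given as a description. Over deciles of the score in tumour A, Bgn went from 19.9 CPM in the lowest to 95.1 CPM in the highest, and Tnc stayed between 268 and 293 CPM over the lowest 5 deciles before reaching 518 CPM. In tumour B the lowest 4 deciles all had a score of 0 and their order is arbitrary. The 16 matrix genes called higher summed to 2070 CPM in members of tumour A, 1602 CPM 1 spot away, 1433 CPM 2 spots away and 899 CPM at 5 or more spots. In tumour B they summed to 1282, 796, 670 and 637 CPM at the same distances. These genes, like Bgn and Tnc, were called for being higher in these members than in fibroblast-poor spots. A raised level in members was thus built into their choice and is no support for it. The called genes Lgals7 and Ccl8 did not peak in the members of tumour A. Lgals7 was at 146 CPM in members and 292 CPM 2 spots away, and Ccl8 at 129 CPM in members and 159 CPM 1 spot away. In tumour B both were highest in the members (69.1 and 57.8 CPM). Mgp went from 136 CPM in members to 617 CPM at 5 or more spots in tumour A. In tumour B it lay between 243 and 332 CPM from members to 4 spots away and at 726 CPM at 5 or more spots. Spots at 5 or more were also deeper than members, with a median of 11259 against 6774 UMIs in tumour A and 14043 against 1790.5 UMIs in tumour B, and Mgp was higher in the deepest 10% of fibroblast-poor spots than in the rest (716 against 241 CPM and 433 against 206 CPM). The part of depth in this was not tested.

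**Figure D5:**
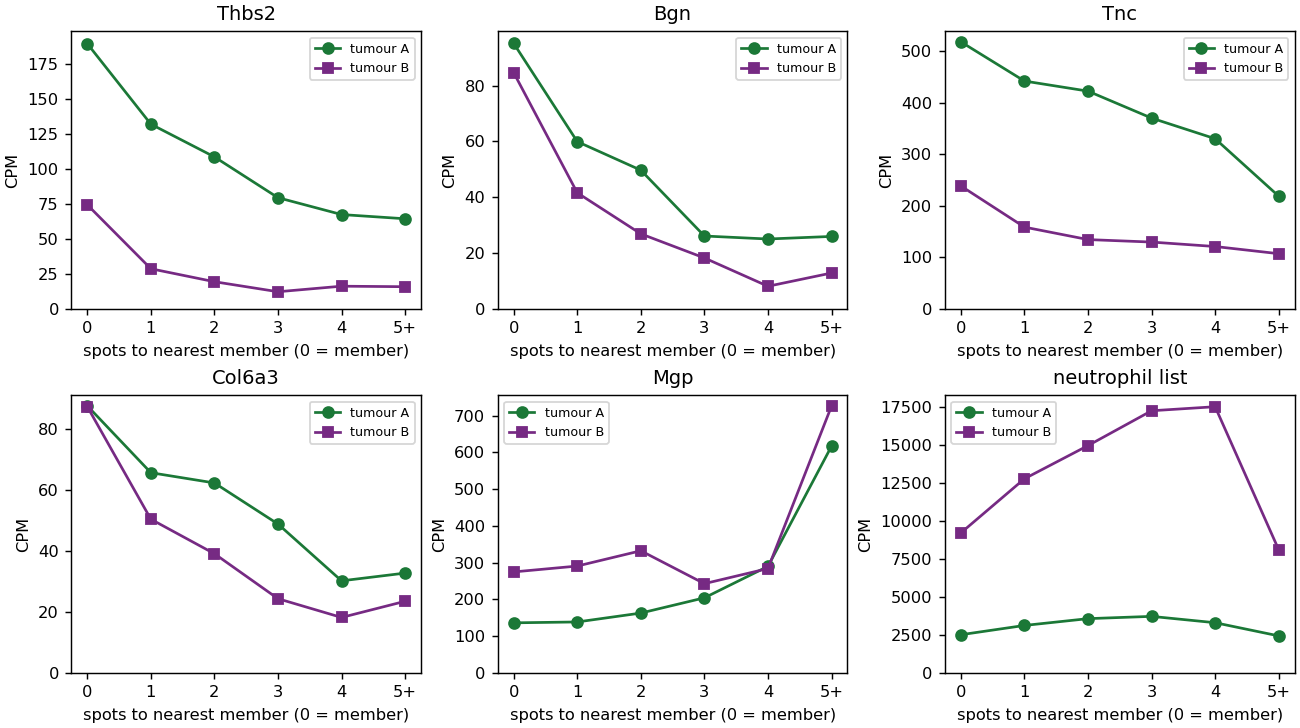
CPM (vertical axis, from 0) of single genes and of the neutrophil list in spots grouped by the number of spots to the nearest member (horizontal axis, 0 is a member), in tumour A (green) and tumour B (purple). Thbs2, Bgn, Tnc and Col6a3, which were called for being higher in these members, are highest there. Mgp, which was called lower, is highest at 5 or more spots.

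Members are also given by patch size, as a description. In tumour A the 80 members in patches of 5 or more had 215 CPM of Thbs2 against 127 CPM in the 41 members alone, and a neutrophil sum of 2094 against 3658 CPM. The 16 matrix genes called higher summed to 2231 against 1712 CPM there. Tnc (519 against 551 CPM) and Acta2 (9.99 against 21.2 CPM) were lower in the patches of tumour A. In tumour B the 20 members in patches of 5 or more had 132 against 30.4 CPM of Thbs2 in the 116 members alone, and 4952 against 11493 CPM of neutrophil genes. The 16 matrix genes summed to 1698 against 765 CPM in tumour B, and Tnc was at 309 against 108 CPM. Tagln was lower in these patches (20.6 against 27.6 CPM). The epidermal sum was 119 CPM in the patches and 466 CPM in the members alone of tumour A. In tumour B it was 138 and 135 CPM. Median depth was 9678.5 UMIs in the patches and 3605 UMIs in the members alone of tumour A, and 1236 and 1743.5 UMIs in tumour B, where the 20 patch members hold 339874 UMIs in all.

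Spots chosen by the score of the adjoining spots gave 56 genes called higher (0.363% of 15444 tested) and 44 lower (0.285%). They shared 66 spots with the members in tumour A and 44 in tumour B. Of the 31 increases 27 were called again, and of the 13 decreases 8. Added matrix and fibroblast genes were Cd248 (1.38), a fibroblast and pericyte surface protein, Fbln2 (0.74) and Col6a1 (0.57). Added decreases included the neutrophil genes S100a8 (-0.78) and S100a9 (-0.88) and the chemokine gene Cxcl1 (-0.66). Gzmf and Gzmg, granzyme genes, were called lower over both sections but were higher in tumour A (526 against 397 CPM and 891 against 595 CPM).

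The primary tumour and metastasis signatures of the study, derived from human stroma, were read in the members by gene symbol. Of 74 tested primary tumour signature genes, Col5a2, Col6a3, Fgfr1 and Col5a1 were called higher, against 0.2% of all genes tested, and the median log2 fold change was 0.06. Of the 74, 25 (33.8%) were higher and 15 (20.3%) lower in both sections, against 16.5% and 34.9% of all genes tested. The primary tumour signature summed to 31923 against 32053 CPM in tumour A and 29383 against 27049 CPM in tumour B. The score genes of this signature were left out. Of 72 tested metastasis signature genes none was called, and the median was -0.22. In both sections 30 (41.7%) were lower and 7 (9.72%) higher without passing the test, against 34.9% and 16.5% of all genes tested. The metastasis signature summed to 3371 against 3493 CPM in tumour A and 3992 against 5432 CPM in tumour B. Of the 14 tested genes that the text of the study names, Col6a3 and Col6a2 were called and none was lower past the threshold. Among those not called, the chemokine gene Ccl4 had 4.25 against 15.1 CPM and 5.18 against 15.3 CPM (log2 fold change -1.68, SE 0.48, edgeR adjusted p = 0.113). Il1rn, the antagonist of the interleukin 1 receptor, had 171 against 195 CPM and 144 against 281 CPM (log2 fold change -0.56, SE 0.18, edgeR adjusted p = 0.301). Complement genes C1ra and C3 had log2 fold changes of 0.42 and 0.02. Itgav, an integrin chain, had 355 against 323 CPM and 312 against 231 CPM and was not called. The metastasis signature genes Birc7, Ifna7 and Kir3dl2 were at 0 in all sums.

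Promoters of the 31 genes called higher were read as a description. RefSeq promoters on GRCm38.p6, from 250 bases before the start to 50 after it, were matched for 20 of 31 genes. The motif CATTCC, searched on both strands, was in 7 of them (35.0%) against 12.6% of the promoters of genes tested and 14.6% of all promoters. Igfbp5, 1 of the 7, was higher in tumour A alone. The motif CCAAT was in 5 of them against 38.2% of the promoters of genes tested, and TGANTCA, with any base at N, in 0 of 20 against 6.59%. The CArG box, read strictly as CC, 6 bases that are each A or T, and GG, was in 0 of 20 and in 2 of 13 promoters of the contractile list (Myl9 and Cnn2), against 1.43%. Near matches with another base inside, as in the Acta2 promoter below, were not counted. A match is a description and no site of binding. The 3 promoters below belong to Acta2 (chr19:34255324-34255623, minus strand), Col6a2 (chr10:76623355-76623654, minus strand) and Timp1 (chrX:20869916-20870215, plus strand), shown as examples of a contractile, a collagen and an inhibitor gene, with CATTCC or its reverse complement in capitals, at -146, -115 and -247 from the start.
Acta2: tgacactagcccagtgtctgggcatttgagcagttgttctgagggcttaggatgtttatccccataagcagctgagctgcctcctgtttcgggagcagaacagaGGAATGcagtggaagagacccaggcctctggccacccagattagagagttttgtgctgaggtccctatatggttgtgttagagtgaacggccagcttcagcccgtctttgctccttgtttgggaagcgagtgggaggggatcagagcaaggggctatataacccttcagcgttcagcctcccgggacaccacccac
Col6a2: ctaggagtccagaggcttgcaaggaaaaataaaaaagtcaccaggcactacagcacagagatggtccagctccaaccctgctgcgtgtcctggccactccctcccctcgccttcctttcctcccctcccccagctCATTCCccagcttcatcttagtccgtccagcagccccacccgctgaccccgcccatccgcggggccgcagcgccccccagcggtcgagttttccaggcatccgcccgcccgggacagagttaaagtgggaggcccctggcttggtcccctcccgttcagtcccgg
Timp1: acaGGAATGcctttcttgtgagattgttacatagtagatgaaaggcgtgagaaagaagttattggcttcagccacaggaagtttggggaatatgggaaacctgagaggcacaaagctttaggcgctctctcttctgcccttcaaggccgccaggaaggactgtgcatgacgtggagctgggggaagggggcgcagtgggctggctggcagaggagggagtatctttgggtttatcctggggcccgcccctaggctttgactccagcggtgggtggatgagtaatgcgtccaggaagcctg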

How the data were processed

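Visium libraries of 2 primary tumours and 2 lungs were used. UMI counts of 19465 genes in each spot were deposited by the authors as Space Ranger 2.0.0 gave them, without normalization, and the submitters' processing notes name mm10. Counts were summed per section and class of spots. The test was the quasi-likelihood test of edgeR 4.0.16 in R 4.3.3 (TMM, filterByExpr, Benjamini-Hochberg adjustment over all genes tested but the score genes, threshold 0.05). The main model has the mouse as a block, since both sums of a mouse come from 1 section of 1 animal, and same-mouse deviations had a correlation of 0.892. It leaves 1 residual degree of freedom, so the spread is shared over genes, and p-values rest on 2 mice. The fit gave infinite weight to the shared spread, so a gene's own disagreement between the sections does not enter its p-value. Vwf, Igfbp5 and Ctsk were called in this way although they were higher in tumour A alone. DESeq2 1.42.0 and 21 other settings were alternatives. Counts of this comparison were also simulated at a set dispersion of 0.01 (16630 genes tested there, against 15504 in the data). Of genes changed 2-fold 75% were recovered and of those changed 4-fold 99%, with 3 unchanged genes called. The changed genes all had a mean over 10 CPM and changed by the same fold in both mice. Recovery of lower genes, or of changes that differ between sections, was not measured. Members and lists were chosen with earlier results of these data known. Named genes were, per list, up to 3 called genes of the largest change with the same sign in both sections, the 10 largest increases and decreases at a mean of 50 CPM or more, the contractile list, the genes in the text of the study and the score genes. Other genes given with values, such as Vwf, Igfbp5 and Ctsk, were chosen after their values were seen. Tables and plots were made in Python 3.11.15. The drawn outlines of histology were not used here, and some genes are not reported here.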

Additional observations from a re-analysis of the deposited data

Results flagged for a closer look

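The lungs entered no comparison. The 8 score genes took 0.0926% of the UMIs of the eligible lung spots in the mouse of tumour A and 0.187% in the mouse of tumour B, against 0.0836% and 0.0419% in the primary tumours themselves. This is a signal in sections outside the main comparison, and the lung holds fibroblasts of its own.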

How the results depend on the processing

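The 31 increases and 13 decreases had the same direction in nearly every setting in which they were measured. The exceptions were Mmp2, at -0.68 with each spot thinned to 1000 UMIs, and Ugt1a7c, also there. The number of calls was far less stable, and the cause was not tested. Without the replicate block edgeR called 0 genes (33 at an unadjusted p under 0.05), 0 higher, 0 lower and 0 matrix genes, against 44, 31, 13 and 16 in the paired model. DESeq2 called 5, all higher matrix genes, and 0 lower. Library totals without TMM gave 74 calls, 31 of them lower, and no filter on low counts 21, 0 lower. Against all other spots 21 were called (19 higher, 2 lower), and against the lowest 25% 15 higher and 49 lower. The top 5% and the top 20% each gave 4 lower. Ranking within depth classes gave 24 calls, 1 lower. With each spot thinned to 1000 UMIs there was 1 call, with 0 higher, 1 lower and 0 matrix genes, and with the members kept as chosen and then thinned 0 (443 at an unadjusted p under 0.05). Choice by adjoining spots gave 100 calls, 56 higher and 44 lower. The score of 4 genes gave 16 calls (15 higher, 1 lower, 8 matrix genes). Without edge spots there were 29 calls, 5 lower. A minimum of 2000 UMIs gave 77 calls, 58 higher. The thinning of chosen members and the next 5 settings were added once the data had been seen. Members with 5 or more score UMIs gave 71 calls, 49 lower. The score without Pdgfra gave 14 calls, 14 higher, 0 lower and 9 matrix genes. Without the deepest 10% of each class there were 0 calls (418 at an unadjusted p under 0.05). Leaving these spots out in tumour A alone gave 15 calls (14 higher, 1 lower, 9 matrix genes), and in tumour B alone 0 calls, 0 higher, 0 lower and 0 matrix genes (370 at an unadjusted p under 0.05).

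Genes that were not called changed sign in some settings, on the log2 scale. Thinning each spot gave 0.15 for Tpm1 and 0.59 for Ccl2, and thinning the chosen members 0.052 for Tpm1, 0.24 for Des and 0.47 for Ccl2. Against the lowest 25% the values were 0.0071 for Cnn2, 0.019 for Tpm1 and -0.013 for C3. Without edge spots they were -0.12 for Actg2, 0.30 for Notch3, 0.26 for Synpo2, -0.13 for C3 and 0.33 for Eomes. The top 20% gave 0.18 for Des, 0.16 for Notch3, 0.18 for Synpo2 and 0.11 for Zeb1, and the top 5% 0.012 for Notch3 and 0.0027 for Synpo2. Against all other spots they were 0.068 for Des, 0.19 for Synpo2, 0.58 for Eomes and 0.27 for Ncam1. Depth classes gave 0.19 for Des, 0.18 for Notch3, 0.40 for Synpo2, -0.046 for C3, 0.17 for Eomes, 0.12 for Zeb1 and 0.13 for Ncam1. The score of 4 genes gave 0.048 for Des and 0.18 for Zeb1. Without the deepest 10% they were -0.28 for Cspg4, 0.32 for Synpo2, -0.15 for C3 and 0.32 for Eomes. Left out in tumour A alone they gave 0.064 for Synpo2 and 0.045 for Eomes, and in tumour B alone -0.13 for Myl9, -0.28 for Actg2, -0.24 for Cspg4, 0.15 for Synpo2, -0.16 for C3, 0.20 for Eomes and -0.028 for Col6a1. DESeq2 gave 0.013 for Notch3. Choice by adjoining spots gave 0.80 for Notch3, -0.38 for C1ra and 0.095 for Lamc3. Eomes was at 0.0064 without the block and 0.013 without the filter, Zeb1 at 0.21 with a minimum of 2000 UMIs and Ncam1 at 0.044 with 5 or more score UMIs. Leaving out a mouse leaves 1 section and no test.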
